A study of Homo sapiens with 6 samples.

Results

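The genes described here are 10 genes of the cornified envelope and of suprabasal epithelial differentiation, namely PPL, EVPL, TGM1, KRT13, SPRR1A, SPRR1B, SPRR3, IVL, CSTA and KRT80. They were taken by gene symbol from the deposited expression table, which lists 18999 features. Values of 9 of the 10 were found and all 9 were tested, while SPRR3 was not analysed here. In MCF10A cells carrying pre-miR-203a, 6 of the 9 were higher than in cells carrying the empty vector, and none was lower. Over all tested features 6.59% were higher and 9.18% were lower. The 6 were the plakin PPL, the transglutaminase TGM1, the keratins KRT13 and KRT80, and the small proline-rich proteins SPRR1A and SPRR1B. The mean levels of these 6 were between 2.46 and 6.05 times those of the empty-vector cells. The largest ratio was that of KRT13, which passed the filter on low values through the pre-miR-203a libraries only. The calls of TGM1, SPRR1A and SPRR1B each ended in 4 of the 6 fits that left out a library. The plakin EVPL, the involucrin gene IVL and the cystatin gene CSTA did not pass the test, which compared the groups without pairing. With same-numbered libraries taken as pairs, EVPL passed as well (limma adjusted p = 0.0405).

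The study looked for genes targeted by miR-203a. MCF10A is an immortalised, non-tumorigenic line of human mammary epithelial cells, here transduced with a retrovirus carrying either pMSCVpuro-pre-miR-203a or pMSCVpuro alone. RNA-seq libraries came from 3 pre-miR-203a replicates and 3 empty-vector replicates. Both groups were kept under puromycin and grown with horse serum, epidermal growth factor, insulin, cholera toxin and hydrocortisone. The hairpin was expressed from an integrated vector in selected cells, and the labels do not say whether replicates came from separate transductions, so p-values measure the spread between these libraries. The series text describes total RNA, whereas the extract protocol describes an immunoprecipitation of AGO2, the Argonaute protein that holds miRNAs on their targets. Which of these preparations each value reflects could not be settled from the labels.

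The cornified envelope is a shell of cross-linked protein that replaces the plasma membrane of keratinocytes as they leave the basal layer and differentiate. Envoplakin, periplakin and involucrin assemble first beneath the membrane, transglutaminases cross-link them, and small proline-rich proteins are added as cross-bridging substrates. The shell is a feature of stratified squamous epithelia and not of the normal mammary duct, although cultured mammary epithelial cells can express genes of this programme. In the epidermis, chiefly from work in mice, miR-203 is known as a miRNA of the suprabasal layers that restrains basal-cell proliferation, in part through the transcription factor p63.

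The sequence that guides the miRNA to its targets is shown first, since it fixes which 3′ UTR sites are of interest. RefSeq (GRCh38.p14) places the mature strand at chr14:104117469-104117490 on the plus strand, with the seed, bases 2 to 8, in capitals.
hsa-miR-203a-3p: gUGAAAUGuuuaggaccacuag
Sites complementary to this seed were searched in the longest 3′ UTR annotated by GENCODE 29 for each gene, in 10188 tested genes with one. The classes were CATTTCAA (8mer), CATTTCA (7mer-m8), ATTTCAA (7mer-A1) and ATTTCA (6mer), and each gene was given its longest class. The best site was an 8mer in 7.62% of these genes, a 7mer-m8 in 16.2%, a 7mer-A1 in 10.3% and a 6mer in 17.6%, and 48.2% had none of the 4 classes. No such site was present in the 3′ UTRs of PPL (877 bases), EVPL (258), TGM1 (199), KRT13 (965), SPRR1B (285), IVL (331) or KRT80 (2527), and GENCODE 29 annotates no 3′ UTR for SPRR1A. CSTA was the only one of the 9 with a match, a 6mer at bases 220 to 225 of a 3′ UTR of 598 bases on chromosome 3, shown in capitals within its context.
CSTA: ttgtatagaaaaagATTTCAtaacagttca
A match is a description of the letters and does not show that the site is bound.

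The RefSeq promoter table held 3 of the 9 genes, IVL, SPRR1A and SPRR1B, which lie together in the epidermal differentiation complex on chromosome 1. Their 250 bases before the RefSeq start are shown because SPRR1A and SPRR1B passed the test below and their neighbour IVL did not, on the plus strand and with the AP-1 motif TGAGTCA in capitals. The windows are chr1:152908296-152908545 for IVL, chr1:152983831-152984080 for SPRR1A and chr1:153030953-153031202 for SPRR1B in GRCh38.p14.
IVL: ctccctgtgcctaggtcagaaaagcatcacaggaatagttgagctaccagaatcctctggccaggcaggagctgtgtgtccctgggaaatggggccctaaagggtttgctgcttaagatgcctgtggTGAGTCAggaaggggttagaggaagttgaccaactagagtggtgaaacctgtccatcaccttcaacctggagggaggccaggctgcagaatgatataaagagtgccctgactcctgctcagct
SPRR1A: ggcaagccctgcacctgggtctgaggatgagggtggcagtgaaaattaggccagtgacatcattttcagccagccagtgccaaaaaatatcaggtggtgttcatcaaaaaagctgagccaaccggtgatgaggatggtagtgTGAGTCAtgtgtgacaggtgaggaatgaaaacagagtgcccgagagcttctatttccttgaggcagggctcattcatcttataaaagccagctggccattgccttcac
SPRR1B: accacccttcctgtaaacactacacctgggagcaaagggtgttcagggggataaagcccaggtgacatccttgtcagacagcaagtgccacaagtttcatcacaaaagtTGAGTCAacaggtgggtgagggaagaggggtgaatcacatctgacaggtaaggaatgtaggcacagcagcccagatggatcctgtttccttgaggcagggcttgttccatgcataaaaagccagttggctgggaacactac
AP-1 is the Fos and Jun family of transcription factors, long known to act on the involucrin and SPRR1 promoters in keratinocytes. TGAGTCA (or its reverse complement TGACTCA), searched on both strands, was present in 4.2% of 35116 RefSeq promoter windows of the same length. It stood 123 to 117 bases before the start of IVL, 108 to 102 bases before that of SPRR1A and 141 to 135 bases before that of SPRR1B. All 3 windows thus held the letters, the window of IVL included. TATAAA, present in 10.7% of windows on either strand, lay 30 to 25 bases before the start of IVL and 29 to 24 before that of SPRR1A, and these letters were not in the SPRR1B window. AACCGGT, a motif of the grainyhead-like factors, was in the SPRR1A window alone of these 3, from 131 to 125 bases before the start, and in 0.626% of all windows. When aligned, the SPRR1A and SPRR1B windows were identical at 181 of 275 positions (65.8%), compared with 56.4% for IVL and SPRR1A and 51.9% for IVL and SPRR1B.

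Reads over the MIR203A gene separated the groups as labelled. Over this gene, the pre-miR-203a libraries held 34827, 8476 and 20942 reads, against 8, 21 and 22 reads in the empty-vector libraries. Reads summed over the listed features were 16658840, 20831785 and 7632063 in pre-miR-203a libraries 1 to 3, against 15724554, 35084590 and 28721937 in empty-vector libraries 1 to 3. The first principal component, 53.2% of the variance, separated the groups, and the second, 26.6%, set library 3 of both groups apart. All libraries expressed KRT5 (352.6 to 702 FPKM), KRT17, TP63 and ITGB4 of basal mammary epithelium, whereas KRT14 was at 0.724 to 1.84 FPKM. They also expressed the simple epithelial keratins KRT7 (671.7 to 1143 FPKM), KRT18 (82.4 to 156 FPKM) and KRT8 (29.3 to 75.5 FPKM). KRT19, of the same class, was at 0.134 to 0.678 FPKM. FPKM, the unit the authors deposited, scales reads to the length of the feature and to the size of the library. Of 6 immune markers 3 had values: CD68 and ITGAM stayed at or below 0.202 FPKM, and CSF1R was higher with pre-miR-203a (log2 fold change 1.14 ± 0.18, SE, limma adjusted p = 0.00758). The summed level of the immune list was 2.53 to 3.95 FPKM in pre-miR-203a libraries and 0.80 to 1.17 FPKM in empty-vector libraries. That of 8 measured fibroblast and endothelial markers was 5.87 to 9.74 FPKM in pre-miR-203a libraries and 4.16 to 7.1 FPKM in empty-vector libraries, so these ranges overlapped, and COL1A1 was higher (0.63 ± 0.12, SE, limma adjusted p = 0.0129, a call that ended without pre-miR-203a library 1 or empty-vector library 1). COL3A1, VWF and CDH5 were at 0 in at least 1 library, and the means of ITGAM, LUM, PECAM1, VWF, COL3A1 and PDGFRB, each under 0.3 FPKM, were lower with pre-miR-203a. Thus CSF1R and COL1A1 were the 2 called markers of other cell types. Without a call, mean FPKM was also higher with pre-miR-203a for CD68 (0.0755 against 0.0694), DCN (4.98 against 3.81) and CDH5 (0.0854 against 0.0104). The part of these markers in the results was not tested.

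Counts across the 9 genes are read against the whole table. Levels were compared as log2(FPKM + 1) in limma over 11271 features with 1 FPKM or more in at least 3 libraries, and a Benjamini-Hochberg adjusted p under 0.05 was called. By this rule 743 features, 6.59%, were higher with pre-miR-203a and 1035, 9.18%, were lower. Among the 9 genes 6 were higher, and the same 6 were those in which every pre-miR-203a library exceeded every empty-vector library, as did 16.6% of all tested features. The median log2 fold change of the 9 was 1.37, beside −0.01 over all tested features. The 9 genes were chosen with earlier results of these data known. The part of that choice in this count and median was not tested. KRT13 passed the filter on low values through the pre-miR-203a libraries only, so its presence among the tested genes favours a higher value. In limma-voom on recovered reads the 6 were higher too, where 8.02% of features were. In the authors' deposited table, the authors' DESeq2 analysis also had these 6 higher at an adjusted p under 0.05, where 8.8% of features with an adjusted p were. The summed level of the 9 genes was 174.3 to 226.1 FPKM in pre-miR-203a libraries, against 90.4 to 105.1 FPKM in empty-vector libraries.

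**Figure D1:**
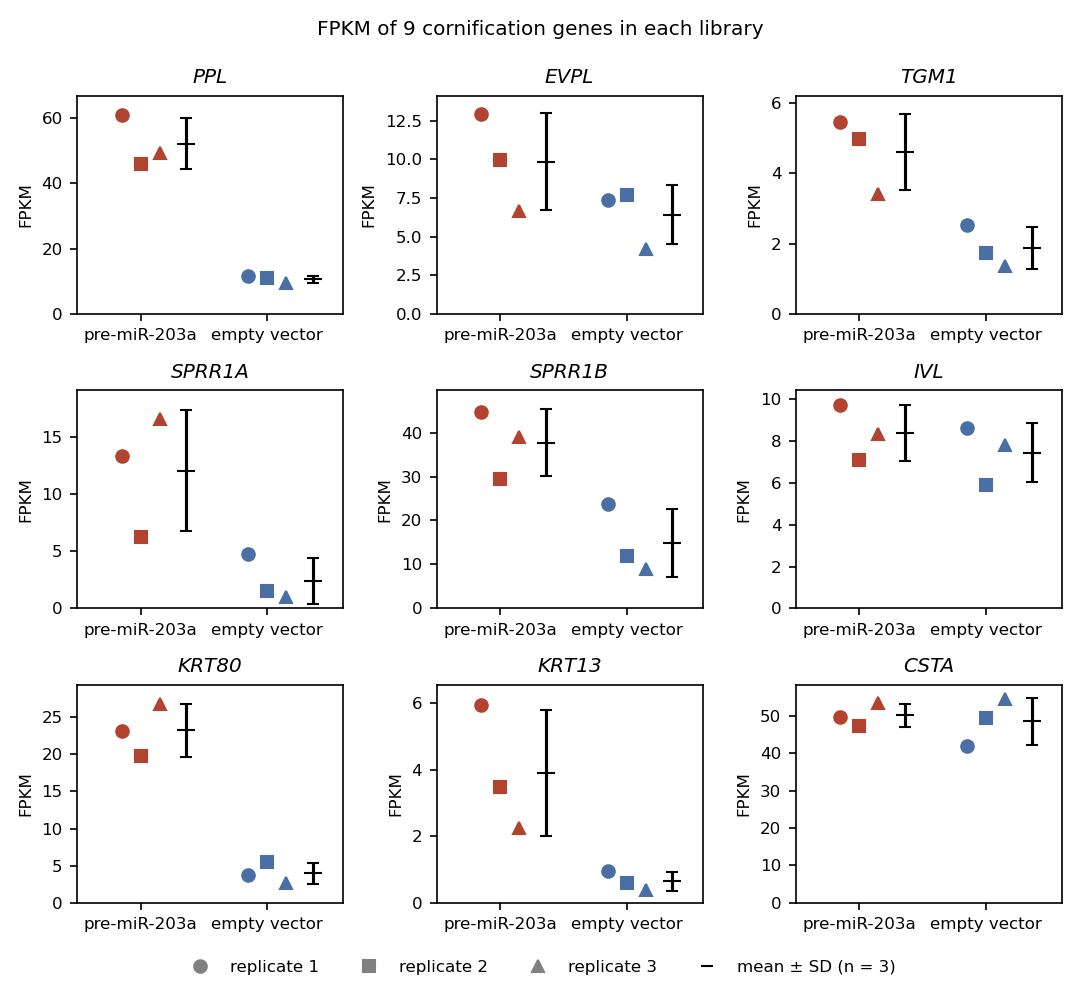
FPKM of each of the 9 measured genes by library, with a panel per gene, pre-miR-203a on the left and empty vector on the right; marker shapes give the replicate number and black marks the mean ± SD (n = 3). The groups are apart in PPL, TGM1, KRT13, SPRR1A, SPRR1B and KRT80 and overlap in EVPL, IVL and CSTA.

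Among the scaffold proteins, PPL was higher with pre-miR-203a and had the smallest adjusted p of the 9 genes. PPL encodes periplakin, a plakin that links keratin filaments to desmosomes and to the envelope (ENSG00000118898.16, chromosome 16, 4882507 to 4960741, minus strand, GRCh38). It was at 61.1, 46.0 and 49.5 FPKM in pre-miR-203a libraries 1 to 3, against 11.5, 11.0 and 9.34 FPKM in empty-vector libraries 1 to 3. Every pre-miR-203a library was thus far above every empty-vector library. The means were 52.2 ± 7.88 FPKM with pre-miR-203a and 10.6 ± 1.12 FPKM with empty vector (SD, n = 3 each), a ratio of 4.92. The log2 fold change was 2.19 ± 0.14 (SE; 95% interval 1.86 to 2.52; limma adjusted p = 0.00152). PPL rested on 2906 to 7833 reads per pre-miR-203a library and 1391 to 2963 per empty-vector library. In these bulk libraries, more cells expressing a gene and more RNA per cell cannot be told apart.

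EVPL, which encodes envoplakin, the binding partner of periplakin, moved less (ENSG00000167880.8, chromosome 17, 76004502 to 76027452, minus strand). Its level was 12.9, 9.93 and 6.65 FPKM in pre-miR-203a libraries 1 to 3, against 7.34, 7.664 and 4.198 FPKM in empty-vector libraries 1 to 3. The groups overlapped, and library 3 was the lowest in both. The log2 fold change of 0.54 ± 0.27 (SE; 95% interval −0.09 to 1.18) did not pass the test (limma adjusted p = 0.23). EVPL was higher with pre-miR-203a in each of the 3 same-numbered pairs. With the replicate number as a block the limma adjusted p was 0.0405, and 7 of the 9 genes were then called, where 7.52% of all features were. In the authors' deposited table the adjusted p of EVPL was 0.0814.

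The balance of the plakin pair was compared within each library. The FPKM of PPL divided by that of EVPL was 4.72, 4.64 and 7.43 in pre-miR-203a libraries and 1.57, 1.43 and 2.23 in empty-vector libraries. The ratios did not overlap, and the exact two-sided permutation p of 0.1 is the smallest that 3 libraries against 3 allow. The same p, also after adjustment over 3 such ratios, was found for SPRR1A over SPRR1B and for SPRR1B over IVL. These ratios describe unequal change within a library and do not show that either gene of a pair stayed constant.

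TGM1 encodes transglutaminase 1, the membrane-bound enzyme that cross-links envelope proteins and attaches lipids to them (ENSG00000092295.12, chromosome 14, 24249114 to 24264432, minus strand). Its level was 5.46, 4.96 and 3.40 FPKM in pre-miR-203a libraries 1 to 3, against 2.52, 1.73 and 1.37 FPKM in empty-vector libraries 1 to 3. The groups did not overlap, and the lowest value of each was again in library 3. Mean FPKM was 4.61 ± 1.08 with pre-miR-203a and 1.87 ± 0.59 with empty vector (SD, n = 3 each), and the log2 fold change was 0.97 ± 0.20 (SE; 95% interval 0.49 to 1.44; limma adjusted p = 0.019). TGM1 was a low gene, with 97 to 386 reads in pre-miR-203a libraries and 147 to 226 in empty-vector libraries. Leaving out any of pre-miR-203a libraries 1 and 2 and empty-vector libraries 2 and 3 ended its call in limma, the highest adjusted p being 0.0717.

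The small proline-rich proteins are short, repeat-rich substrates that bridge other envelope proteins. SPRR1A (ENSG00000169474.4, chromosome 1, 152985231 to 152985500, plus strand) was at 13.3, 6.22 and 16.5 FPKM in pre-miR-203a libraries 1 to 3, against 4.71, 1.48 and 1.03 FPKM in empty-vector libraries 1 to 3. These values rested on 60, 35 and 34 reads in pre-miR-203a libraries and on 20, 14 and 8 reads in empty-vector libraries. The groups did not overlap, yet each spread widely. The log2 fold change was 1.99 ± 0.46 (SE; 95% interval 0.92 to 3.06; limma adjusted p = 0.0261), from means of 12.02 ± 5.26 FPKM with pre-miR-203a and 2.41 ± 2.01 FPKM with empty vector (SD, n = 3 each).

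SPRR1B (ENSG00000169469.9, chromosome 1, 153031202 to 153032900, plus strand) encodes the closest relative of SPRR1A, also known as cornifin-B. Its level was 44.6, 29.5 and 39.0 FPKM in pre-miR-203a libraries 1 to 3, against 23.6, 11.97 and 8.999 FPKM in empty-vector libraries 1 to 3. Again the groups were apart, and empty-vector library 1 stood nearest to the pre-miR-203a libraries for both paralogs. Mean FPKM was 37.7 ± 7.65 with pre-miR-203a and 14.9 ± 7.73 with empty vector (SD, n = 3 each), and the log2 fold change was 1.37 ± 0.32 (SE; 95% interval 0.61 to 2.13; limma adjusted p = 0.0291). Leaving out any of pre-miR-203a libraries 1 and 3 and empty-vector libraries 2 and 3 ended both calls in limma, the highest adjusted p being 0.0949 for SPRR1A and 0.105 for SPRR1B. They also ended with no filter on low values (0.0513 for SPRR1A and 0.0571 for SPRR1B) and with the deposited TPM in place of FPKM (0.0538 and 0.0604 in the same order).

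The paralogs can share reads, so their separate values are uncertain. Their coding sequences of 270 bases each were identical at 260 positions (96.3%) in GENCODE 29, and of 221 windows of 50 bases in SPRR1A, 25 were also present in SPRR1B without a mismatch. The feature length implied by the deposited FPKM was 270 bases for SPRR1A, its coding sequence alone, and 619 bases for SPRR1B. Reads over the untranslated ends of SPRR1A were therefore not in its value. Of the reads counted over the pair, SPRR1A took 11.5% (95% Wilson interval 9.07 to 14.6), 8.43% (6.13 to 11.5) and 15.6% (11.4 to 21) in pre-miR-203a libraries 1 to 3, against 8% (5.24 to 12), 5.11% (3.07 to 8.39) and 4.76% (2.43 to 9.11) in empty-vector libraries 1 to 3. The shares did not overlap between groups, although the intervals, which cover counting error only, did. Summed over the pair, the level was 58.0, 35.7 and 55.5 FPKM in pre-miR-203a libraries 1 to 3, against 28.3, 13.5 and 10.0 FPKM in empty-vector libraries 1 to 3, and so the groups were also apart for the pair as a whole.

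IVL, the gene of involucrin, which forms the early inner scaffold of the envelope, lies in the same complex (ENSG00000163207.7, chromosome 1, 152908545 to 152911886, plus strand). Its level was 9.74, 7.09 and 8.34 FPKM in pre-miR-203a libraries 1 to 3, against 8.63, 5.88 and 7.81 FPKM in empty-vector libraries 1 to 3. The groups overlapped, and the replicates of each number lay near each other, with replicate 2 the lowest in both groups. The log2 fold change was 0.16 ± 0.17 (SE; 95% interval −0.23 to 0.55; limma adjusted p = 0.59, and 0.35 with the replicate block, although IVL was higher in each of the 3 same-numbered pairs). The interval excludes a change as large as the point estimate for TGM1, and a small difference in either direction lies within it. SPRR1B divided by IVL was 4.58, 4.15 and 4.67 in pre-miR-203a libraries and 2.74, 2.04 and 1.15 in empty-vector libraries, and these ratios did not overlap.

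The region between S100A10 and S100A1, which GENCODE 29 places at 151982915 to 153632039 on chromosome 1, was examined as the epidermal differentiation complex. It holds 64 protein-coding genes, of which 25 had values and 14 were tested. SPRR1A and SPRR1B were the 2 called genes, both higher, and the tested remainder consisted of IVL and genes of the S100 family of calcium-binding proteins. Of all tested features 6.59% were called higher and 15.8% were called in either direction. The count of 2 of 14 is near the second share and above the first, and it rests on 2 paralogs that can share reads. The median log2 fold change of the 14 was 0.22. The other measured small proline-rich genes, SPRR2A, SPRR2D, SPRR2E, SPRR2F and SPRR5, stayed below 1 FPKM in all 6 libraries and were not tested. SPRR2A, another cross-bridging substrate, was at 0.709, 0.496 and 0.387 FPKM in pre-miR-203a libraries 1 to 3, against 0.752, 0.168 and 0.0514 FPKM in empty-vector libraries 1 to 3, from 1 to 8 reads in each library.

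**Figure D2:**
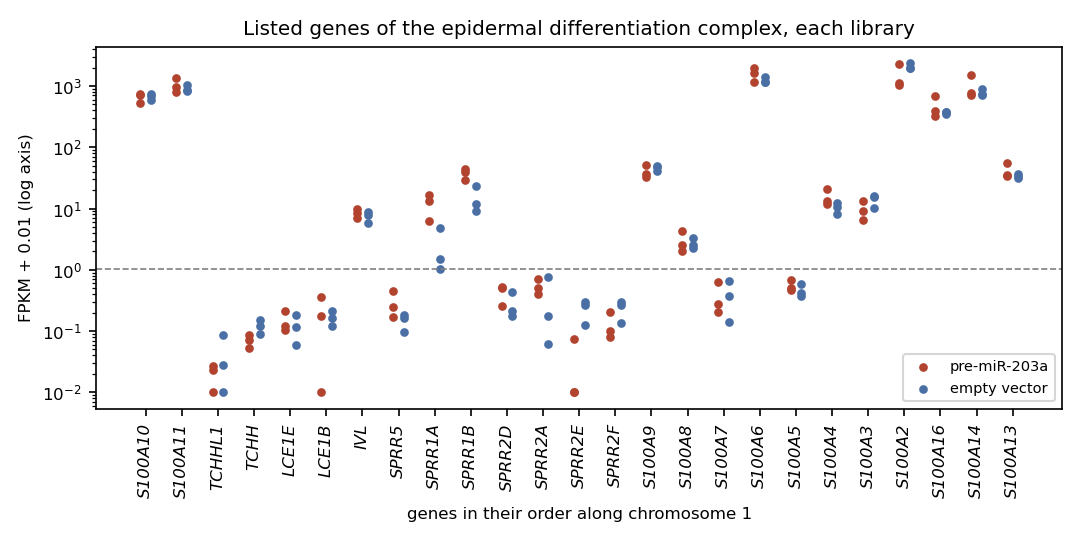
FPKM + 0.01 (log axis) in each library of the 25 listed genes of the epidermal differentiation complex in their order on chromosome 1, pre-miR-203a to the left of empty vector for each gene; the dashed line marks 1 FPKM. The groups of SPRR1A and SPRR1B are apart above the line, those of IVL overlap, and the SPRR2 genes lie below it.

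The keratins gave the largest ratios of the set. KRT80 encodes a type II keratin found at desmosomes and, in later differentiation, in the cytoplasmic filament network (ENSG00000167767.14, chromosome 12, 52168996 to 52192000, minus strand). Its level was 23.2, 19.7 and 26.8 FPKM in pre-miR-203a libraries 1 to 3, against 3.76, 5.49 and 2.71 FPKM in empty-vector libraries 1 to 3. The lowest pre-miR-203a library was well above the highest empty-vector library. Mean FPKM was 23.2 ± 3.51 with pre-miR-203a and 3.99 ± 1.40 with empty vector (SD, n = 3 each), a ratio of 5.82, and the log2 fold change was 2.31 ± 0.21 (SE; 95% interval 1.80 to 2.81; limma adjusted p = 0.00218). KRT80 rested on 891 to 1794 reads in pre-miR-203a libraries and 258 to 840 in empty-vector libraries.

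KRT13 encodes a type I keratin of the suprabasal layers of non-cornified stratified epithelia such as the oesophagus (ENSG00000171401.15, chromosome 17, 41500981 to 41505705, minus strand). It was a low gene, at 5.96, 3.48 and 2.25 FPKM in pre-miR-203a libraries 1 to 3, against 0.961, 0.587 and 0.383 FPKM in empty-vector libraries 1 to 3. The groups did not overlap, and the order of the libraries, 1 above 2 above 3, was the same in both. Means of 3.89 ± 1.89 FPKM with pre-miR-203a and 0.643 ± 0.293 FPKM with empty vector (SD, n = 3 each) gave a ratio of 6.05. The log2 fold change was 1.52 ± 0.28 on the log2(FPKM + 1) scale (SE; 95% interval 0.87 to 2.17; limma adjusted p = 0.0121). Since the added 1 understates changes of low genes, the estimate was 2.39 with 0.1 added in its place and 2.75 in limma-voom on the recovered reads, of which there were 289, 211 and 50 in pre-miR-203a libraries and 44, 60 and 32 in empty-vector libraries.

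CSTA encodes cystatin A, a cysteine protease inhibitor that is itself an envelope substrate (ENSG00000121552.4, chromosome 3, 122325244 to 122341972, plus strand). Its level was 49.8, 47.4 and 53.4 FPKM in pre-miR-203a libraries 1 to 3, against 42.0, 49.4 and 54.5 FPKM in empty-vector libraries 1 to 3. The groups overlapped, and the highest and the lowest library were both empty-vector libraries, with means of 50.2 ± 3.05 FPKM with pre-miR-203a and 48.6 ± 6.27 FPKM with empty vector (SD, n = 3 each). The log2 fold change was 0.05 ± 0.13 (SE; 95% interval −0.245 to 0.347; limma adjusted p = 0.84), and its sign turned without empty-vector library 1 and with the deposited TPM (−0.05 in each). CSTA, the 1 gene of the 9 with a seed match shown above, had the smallest estimated change of the 9. A link to the match was not tested.

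**Figure D3:**
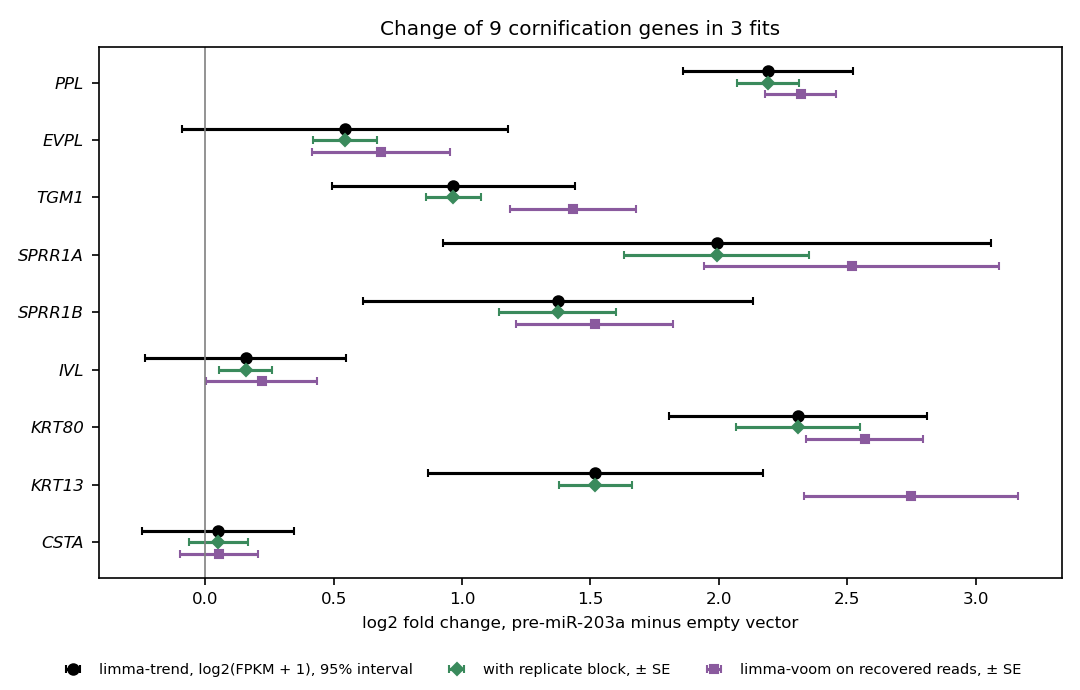
Log2 fold change, pre-miR-203a minus empty vector, of the 9 genes in 3 fits: limma on log2(FPKM + 1) with its 95% interval, the same with the replicate number as a block (± SE), and limma-voom on recovered reads (± SE). The 95% intervals of EVPL, IVL and CSTA in the first of these fits include 0, and KRT13 differs most between the fits, at 1.52 and 2.75.

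The order of the genes by mean FPKM, which is scaled to feature length, differed between the groups. The places of SPRR1A and SPRR1B in it are uncertain. These paralogs can share reads, and SPRR1A was scaled to its coding sequence alone. With pre-miR-203a the mean FPKM ran from PPL through CSTA, SPRR1B, KRT80, SPRR1A, EVPL, IVL and TGM1 to KRT13. With empty vector it ran from CSTA through SPRR1B, PPL, IVL, EVPL, KRT80, SPRR1A and TGM1 to KRT13. Neighbours whose library values overlapped were PPL with CSTA, SPRR1A with EVPL, EVPL with IVL and TGM1 with KRT13 in pre-miR-203a libraries. In empty-vector libraries they were SPRR1B with PPL, IVL with EVPL, EVPL with KRT80, KRT80 with SPRR1A and SPRR1A with TGM1. PPL was thus level with CSTA in pre-miR-203a cells and well below it in empty-vector cells. KRT80 stood above EVPL and IVL in pre-miR-203a cells and below their means in empty-vector cells.

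Within a group the 9 genes did not move as a block. Pre-miR-203a library 1 held the highest value of its group for 6 genes (PPL, EVPL, TGM1, KRT13, SPRR1B and IVL), and empty-vector library 1 for 6 (PPL, TGM1, KRT13, SPRR1A, SPRR1B and IVL). Empty-vector library 3 held the lowest value of its group for 7 genes. Pre-miR-203a library 2, with the fewest MIR203A reads of its group (8476), was the lowest for 6 genes and the highest for none. The 6 were CSTA, IVL, KRT80, PPL, SPRR1A and SPRR1B, and a link to the hairpin level was not tested. Pre-miR-203a library 3, the shallowest, was the lowest for EVPL, TGM1 and KRT13 and the highest for CSTA, KRT80 and SPRR1A. The share of reads from mitochondrial genes was 6.27%, 7.04% and 5.04% in pre-miR-203a libraries 1 to 3, against 4.29%, 4.16% and 8.55% in empty-vector libraries 1 to 3.

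Each library was left out in turn to see which of the 6 calls rested on it. PPL, KRT80 and KRT13 kept their calls in all 6 limma fits, with adjusted p between 0.0031 and 0.0089 for PPL, between 0.00452 and 0.0153 for KRT80 and between 0.0113 and 0.0447 for KRT13. TGM1, SPRR1A and SPRR1B each lost the call in 4 of the 6. EVPL, IVL and CSTA were called in none of these fits. A fit with 5 libraries also has fewer samples, and fewer calls of any kind were made in most of them.

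**Figure D4:**
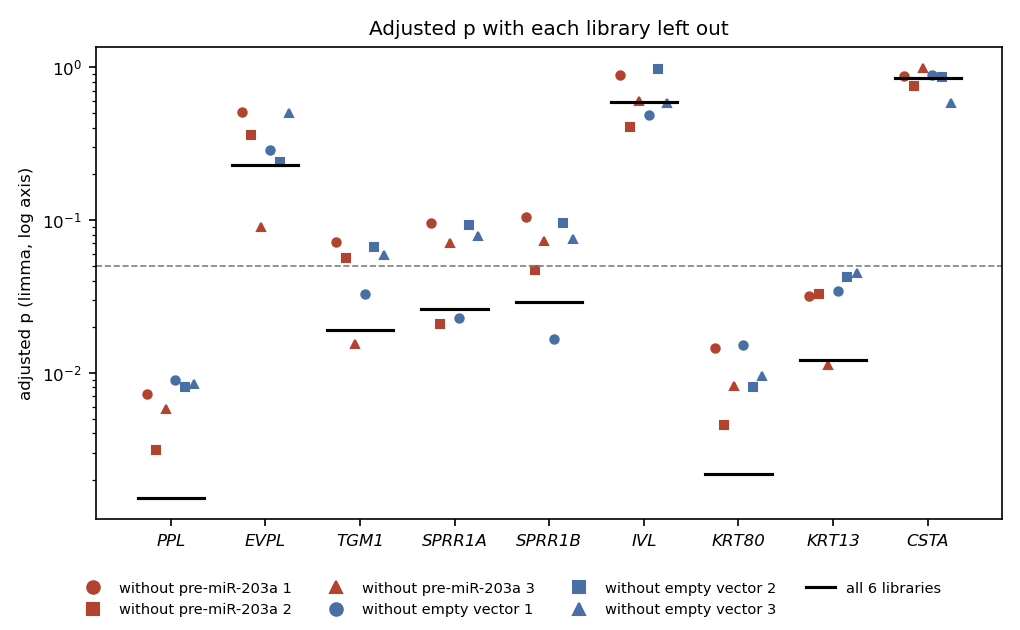
Adjusted p (limma, log axis) of each gene with all 6 libraries (black bars) and with each library left out (symbols, pre-miR-203a libraries in red and empty-vector libraries in blue); the dashed line marks 0.05. PPL, KRT80 and KRT13 stay below the line throughout, and TGM1, SPRR1A and SPRR1B cross it.

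Other genes of cornification were counted by role, and each count stands beside 6.59% higher and 9.18% lower over all tested features. Of 37 further envelope precursors 10 had values and 2 were tested, SCEL (sciellin, 0.59 ± 0.37, SE, limma adjusted p = 0.34) and CNFN (cornifelin, 0.31 ± 0.12, SE, limma adjusted p = 0.13), and neither was called. Of 4 tested genes of the wider plakin family none was called by limma, and none had an unadjusted p under 0.05, with PLEC (plectin) at 0.35 ± 0.27 and DSP (desmoplakin) at 0.21 ± 0.19 (log2 fold change ± SE). Of the tested plakins PPL therefore passed the test, and EVPL passed it with the replicate block only. EPPK1 and EVPLL were too low to be tested. Their means were 0.765 and 0.343 FPKM with pre-miR-203a, against 0.346 and 0.016 FPKM with empty vector, and their groups did not overlap. EVPLL rested on 37 reads in all pre-miR-203a libraries and 3 in all empty-vector libraries. Of 2 other tested transglutaminases TGM5, an epidermal cross-linking enzyme, was higher, at 1.90, 2.09 and 1.17 FPKM in pre-miR-203a libraries 1 to 3, against 0.944, 0.631 and 0.395 FPKM in empty-vector libraries 1 to 3 (0.71 ± 0.19, SE, limma adjusted p = 0.0438). TGM5 passed the filter through the pre-miR-203a libraries only, and its call ended in 5 of the 6 fits that left out a library.

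Among 4 other tested suprabasal keratins KRT16 was higher, a keratin of stressed and hyperproliferative epidermis. It was at 11.5, 6.51 and 5.93 FPKM in pre-miR-203a libraries 1 to 3, against 2.44, 1.71 and 1.25 FPKM in empty-vector libraries 1 to 3 (log2 fold change 1.65 ± 0.26, SE, limma adjusted p = 0.00763). The remaining 3, named after their values were seen, had log2 fold changes of −0.01 for KRT6A, −0.02 for KRT6B and 0.05 for KRT10, the classical early keratin of cornifying epidermis. KRT6A, a partner of KRT16, was at 197.1 to 296.7 FPKM in pre-miR-203a libraries and 196.6 to 325.9 FPKM in empty-vector libraries, so its groups overlapped.

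Of 8 tested protease inhibitors 2 were higher, 1 was lower and 5 were not called. SLPI, a secreted inhibitor of leukocyte proteases, was at 218, 164.7 and 240.5 FPKM in pre-miR-203a libraries 1 to 3, against 135.7, 123 and 91.7 FPKM in empty-vector libraries 1 to 3. Its log2 fold change was 0.83 ± 0.20 (SE, limma adjusted p = 0.0308, and 0.0526 with the replicate block). SERPINB1, an inhibitor of neutrophil proteases, was higher (0.70 ± 0.19, SE, limma adjusted p = 0.0434). SERPINB3, a squamous-cell serpin, was lower, at 1.41, 2.22 and 2.15 FPKM in pre-miR-203a libraries 1 to 3, against 3.84, 3.27 and 4.43 FPKM in empty-vector libraries 1 to 3 (−0.73 ± 0.16, SE, limma adjusted p = 0.022). The SERPINB3 call ended without pre-miR-203a library 1 or empty-vector library 1 or 3 (adjusted p up to 0.083 in limma). Those of SLPI and SERPINB1 ended in 5 of the 6 fits that left out a library, all but the fit without pre-miR-203a library 2, with limma adjusted p up to 0.102 and 0.141 in that order.

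Of 9 tested desquamation and processing proteases 4 were higher and none was lower, where 6.59% and 9.18% of all tested features were. They were PRSS8 (prostasin, 1.34 ± 0.24, SE, limma adjusted p = 0.0117) and ST14 (matriptase, 0.64 ± 0.12, SE, limma adjusted p = 0.0126), membrane-bound serine proteases of 1 epidermal cascade, CTSD (cathepsin D, 1.13 ± 0.24, SE, limma adjusted p = 0.0199) and PADI2, an enzyme that citrullinates proteins (0.97 ± 0.14, SE, limma adjusted p = 0.00591). PRSS8 was at 51.5, 31.2 and 61.8 FPKM in pre-miR-203a libraries 1 to 3, against 19.9, 15.4 and 18.2 FPKM in empty-vector libraries 1 to 3. PADI2 passed the filter through the pre-miR-203a libraries only. The call of ST14 ended without pre-miR-203a library 1 or empty-vector library 1 (limma adjusted p up to 0.0626), and that of CTSD without empty-vector library 1 or 3 (up to 0.0772).

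Of 12 tested genes of the lipid envelope and barrier lipids 7 were higher and 1 was lower, and with the replicate block the call of ASAH1, the lysosomal acid ceramidase, ended (limma adjusted p = 0.0525). ABCA12, the transporter that loads lipids into lamellar granules, was at 16.8, 17.6 and 14.5 FPKM in pre-miR-203a libraries 1 to 3, against 6.85, 8.29 and 7.88 FPKM in empty-vector libraries 1 to 3 (0.99 ± 0.12, SE, limma adjusted p = 0.00411). LIPK, an epidermal lipase, had 29, 33 and 12 reads in pre-miR-203a libraries, against 1, 12 and 7 reads in empty-vector libraries, and passed the filter through the pre-miR-203a libraries only. ABHD5, a co-activator of triglyceride lipase, was also higher (0.71 ± 0.11, SE, limma adjusted p = 0.00687). The lower gene, GPSM2 (−0.78 ± 0.11, SE, limma adjusted p = 0.00647), is known for spindle orientation and is not a lipid enzyme.

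Of 7 tested suprabasal and squamous surface genes 3 were higher and none was lower. With the replicate block 2 were lower, CLCA2 (−0.54, limma adjusted p = 0.0276, against 0.335 without the block) and GJB2, the gap-junction protein connexin (−0.53, 0.0246 with and 0.133 without the block). LYPD3, a membrane-anchored surface protein of suprabasal cells, was at 36.9, 41.8 and 43.6 FPKM in pre-miR-203a libraries 1 to 3, against 13.3, 14.1 and 10.7 FPKM in empty-vector libraries 1 to 3 (1.62 ± 0.13, SE, limma adjusted p = 0.00192). The tight-junction claudins CLDN4 (1.67 ± 0.16, SE, limma adjusted p = 0.00242) and CLDN1 (1.32 ± 0.18, SE, limma adjusted p = 0.00574) were higher as well.

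Transcription factors and other regulators of epithelial differentiation gave 7 higher and no lower genes of 15 tested, and 1 of the 7, GRHL3, passed the filter through the pre-miR-203a libraries only. KLF4, a factor required for the epidermal barrier in mice, was at 4.74, 5.19 and 5.19 FPKM in pre-miR-203a libraries 1 to 3, against 1.96, 2.31 and 1.80 FPKM in empty-vector libraries 1 to 3 (1.00 ± 0.12, SE, limma adjusted p = 0.00373). ELF3, an epithelial ETS factor, was at 17.0, 14.3 and 14.8 FPKM in pre-miR-203a libraries 1 to 3, against 3.58, 4.11 and 1.47 FPKM in empty-vector libraries 1 to 3 (2.08 ± 0.26, SE, limma adjusted p = 0.00432). EHF, another epithelial ETS factor (1.11 ± 0.16, SE), and GRHL1, a grainyhead-like factor (1.02 ± 0.15, SE), were each higher at a limma adjusted p of 0.00612. In these 4 genes no pre-miR-203a library overlapped an empty-vector library, but they were named for the smallest p of their list. In 16.6% of all tested features every pre-miR-203a library was likewise above every empty-vector library. TP63, the gene of p63, had a log2 fold change of −0.81 and a limma adjusted p of 0.0534, which was 0.0259 with the replicate block.

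Basal-layer genes, the counterpart of the suprabasal ones, gave 2 higher and 2 lower genes of 11 tested. Over all tested features 15.8% were called in either direction. COL17A1, a hemidesmosomal collagen, was at 27.0, 30.6 and 44.2 FPKM in pre-miR-203a libraries 1 to 3, against 59.4, 63.4 and 79.2 FPKM in empty-vector libraries 1 to 3 (−0.99 ± 0.20, SE, limma adjusted p = 0.0171). KRT5, the basal type II keratin, was lower (−0.68 ± 0.14, SE, limma adjusted p = 0.0189). KRT15, a basal type I keratin, was higher (1.74 ± 0.36, SE, limma adjusted p = 0.0193). In limma the COL17A1 call ended without pre-miR-203a library 1 or 2 or empty-vector library 3 (adjusted p up to 0.0597). The KRT5 call ended without library 1 or 2 of either group (up to 0.0958), and the KRT15 call without pre-miR-203a library 1 or empty-vector library 1 or 3 (up to 0.066). KRT17, another basal keratin, was called higher with the replicate block only (0.82, limma adjusted p = 0.0173, against 0.18 without it). ITGB4, the hemidesmosomal integrin, was just past the threshold (0.51 ± 0.14, SE, limma adjusted p = 0.0491, and 0.0526 with the replicate block), and its call ended in each of the 6 fits that left out a library. Median log2 fold changes were 0.02 for the basal list, 0.45 for the envelope precursors, 0.13 for the plakin family, 0.22 for the transglutaminases, 0.02 for the suprabasal keratins, 0.32 for the inhibitors, 0.54 for the proteases, 0.58 for the lipid genes, 0.52 for the surface genes and 0.54 for the regulators, beside −0.01 over all tested features. The 3 tested simple epithelial keratins gave 1 higher and no lower gene. KRT8 was higher, at 75.5, 54.1 and 68.5 FPKM in pre-miR-203a libraries 1 to 3, against 38.2, 34.6 and 29.3 FPKM in empty-vector libraries 1 to 3 (0.93 ± 0.16, SE, limma adjusted p = 0.00995). KRT7 (0.44 ± 0.16, SE, limma adjusted p = 0.105) and KRT18 (0.34 ± 0.21, SE, limma adjusted p = 0.328) were not called. KRT19 was too low to be tested, with means of 0.584 FPKM with pre-miR-203a and 0.147 FPKM with empty vector, and its groups did not overlap.

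**Figure D5:**
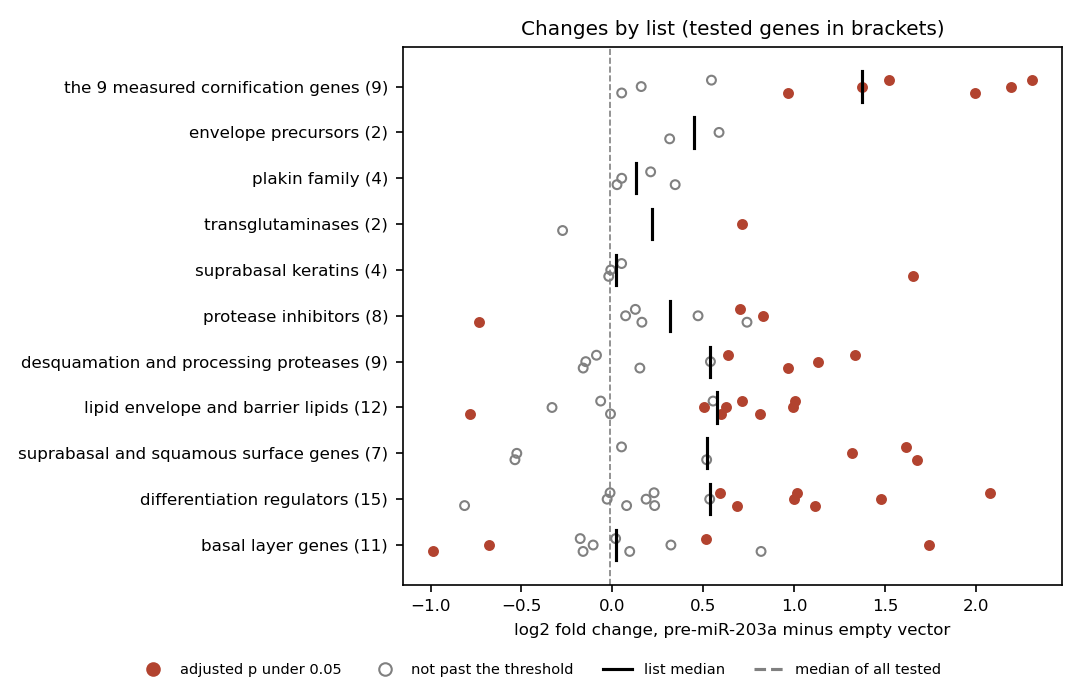
Log2 fold change, pre-miR-203a minus empty vector, of each tested gene by list, with the number tested in brackets; filled points passed an adjusted p of 0.05, open points did not, black bars are list medians and the dashed line is the median of all tested features. The median of the 9 genes is 1.37, and those of the other lists shown lie between 0.02 and 0.58. The 9 genes and the lists were chosen with earlier results of these data known.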

How the data were processed

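The data were RNA-seq values of 6 MCF10A libraries, 3 per group, with groups and replicate numbers from the sample titles. The genes and lists were chosen with earlier results of these data known. The submitters' processing notes name hg38, featureCounts 2.0.0 and DESeq2 1.28.1, while an aligner, an annotation release and a strand mode are not given in the sources used here. What the authors deposited was a table of FPKM and a table of their DESeq2 comparison. The second held TPM, a baseMean signal (mean reads over size factors), p-values and log2 fold changes, which the authors deposited as control over pre-miR-203a and whose sign was turned here.

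Log2(FPKM + 1) was modelled by group alone in limma 3.58.1 (R 4.3.3; eBayes with trend and robust variances), after dropping features that did not reach an FPKM of 1 in at least 3 libraries. Whole reads were recovered from FPKM and baseMean (100% whole within 0.01), and limma-voom on them was an alternative. The read totals cover listed features only, and low genes are the least precise. Ratios of 2 genes were compared by exact permutation tests. Gene coordinates, UTRs and the differentiation complex came from GENCODE 29 (GRCh38).

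Same-numbered libraries deviated from their group means together, with correlations of 0.433, 0.269 and 0.321. The calls nevertheless come from the fit by group alone, which does not use this pairing. The fit with the replicate block, which does use it, is given where it changes a call. The labels state no shared batch or day. From each list at most 4 called genes were named by smallest p, or 2 tested genes if a list had no call. TP63, KRT17, CLCA2, GJB2, ASAH1 and GRHL3 are outside this rule and were picked with their values in view, for a call that the block changed or, for GRHL3, for the filter. KRT7, KRT18 and KRT19 are also outside it and complete the list of simple epithelial keratins.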

Additional observations from a re-analysis of the deposited data

How the results depend on the processing

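Each result was recomputed under 15 alternatives, 9 of setting and 6 that left out a library. With TPM in place of FPKM, 434 features rather than 743 were higher, the median of all tested features shifted to −0.11, and the log2 fold change of CSTA turned to −0.0458. Without a filter, or with TPM, 4 of the 9 genes were higher, since SPRR1A and SPRR1B lost their calls. The replicate block raised the lower genes of all lists to 7, against 4, with TP63, CLCA2 and GJB2 added, called EVPL (0.54, adjusted p = 0.0405) and KRT17 higher, and ended the calls of SLPI, ITGB4 and ASAH1. It changed no other call of the 9 genes or of the list genes named here.

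With single libraries left out, 323 to 919 features were higher and 422 to 1338 (1035 with all) were lower. Likewise 3 to 6 of the 9 genes were higher, with 3 left without pre-miR-203a library 1 or without empty-vector library 2 or 3. Over the other lists 16 to 27 genes (30 with all) were higher and 1 to 5 were lower, and the log2 fold change of CSTA lay between −0.0480 (without empty-vector library 1) and 0.14. The direction of PPL, EVPL, TGM1, KRT13, SPRR1A, SPRR1B, IVL and KRT80 was the same under all 15 alternatives. SPRR1A had the fewest reads of the 9 genes, 8 to 60 per library, so counting error is largest for it.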
